A study of Agaricus blazei with 33 samples.

Results

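The formation of a cap from the primordium of Agaricus blazei was examined by setting the button pileus against the primordium in a table of gene expression values of strain JA. The table held 33 libraries in 11 groups of 3. The 6 libraries compared here were the button pileus libraries 1 to 3, made from the cap of fruit bodies at the button stage, and the primordia libraries 1 to 3, made from fruit body primordia before a cap and a stalk are told apart. Both groups were total RNA of strain JA with no treatment that set them apart. Per the study's methods the primordia were taken at the pinhead stage, on a fixed day after the compost was cased, before the velum was differentiated. The labels did not say whether replicates came from separate cultures or how many fruit bodies were pooled, so the p-values below measure only the spread between these libraries, which may be technical. Button stipe libraries 1 to 3, from the stalk of the same stage, were used to see where the pileus differed from the stalk. The 3 libraries of whole button fruit bodies, which include the cap, were used for correlations between libraries. Values are FPKM of the deposited table, a read count scaled to the length of the gene and the size of the library. Of its 10337 genes, 9254 had a mean of at least 0.5 FPKM over the 6 libraries and were tested.

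A mushroom begins as a knot of hyphae that grows into a primordium, in which the tissues of the later cap and stalk are laid down. In the button the cap is still closed. Its lower side bears the gills, where basidia form, nuclei fuse and meiosis takes place before spores are shed. The stalk mainly elongates. RNA of such tissues is a mixture of hyphae of several kinds, so fewer cells of a kind and less RNA per cell cannot be told apart in these bulk libraries.

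The label of the button pileus as fruiting tissue was read from 2 marker lists. The paper reported the fruiting genes, and the laccases of the mycelium list, as differing between the mycelia and primordia libraries used here. The contrast of primordia with mycelia was therefore set by the choice of genes and cannot check those labels. Only the button pileus sums bear on a label. The 5 fruiting genes summed to 17158 to 28530 FPKM in button pileus, against 15951 to 21700 FPKM in primordia, and to 1916 to 2492 FPKM in mycelia. Most of this sum in button pileus and primordia came from A06219 and A08707. In mycelia A08707 alone had a mean of 2158 FPKM. The 6 genes of the vegetative mycelium summed to 18.1 to 22.4 FPKM in button pileus, against 23.7 to 25.6 FPKM in primordia, where mycelia held 8929 to 19155 FPKM. No marker of a pileus was at hand, so the pileus label was read only by its distance from other libraries. Reads on genes numbered 19088316 to 21454052 per button pileus library, against 17884397 to 20269773 per primordia library. Correlations across genes, which are not independent replicates, were 0.984 to 0.990 within button pileus and 0.985 to 0.988 within primordia, against 0.937 to 0.967 between them. Button pileus 1 correlated best with a library of the whole button (0.988) and next with button pileus 2 (0.987). Whole button 2 correlated best with button stipes 3 and 2 (0.982 and 0.972), against 0.862 to 0.894 with the button pileus libraries.

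Between the button pileus and the primordia 979 genes changed, or 10.6% of those tested, by limma on log2(FPKM + 0.1) where a call needed an adjusted p (Benjamini-Hochberg) below 0.05 and a change of 1 or more on the log2 scale. Of these 305 rose in button pileus (3.3%) and 674 fell (7.28%). The counts of each family below stand beside these shares of all genes. The falls were also the larger changes. A change of 3 or more on the log2 scale was found in 66 genes that fell and in 13 that rose, and one of 4 or more in 19 that fell and 4 that rose. The genes that rose took 6.06 to 6.64% of the summed FPKM in button pileus, against 2.04 to 2.48% in primordia. Those that fell took 2.80 to 3.98% in button pileus, against 8.98 to 10.8% in primordia. The quartiles of all log2 fold changes were -0.32 and 0.30, with a median of 0.04. At an unadjusted p under 0.05 of limma 4714 of the 9254 genes passed in either direction. Counts of families at that threshold below stand beside this number. Fold changes on this scale understate the change of genes with few reads.

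The libraries of the groups did not overlap in 972 of the 979 genes called, where 55% of all genes tested did not overlap. With 3 libraries a group an exact permutation test of a single gene cannot go below p = 0.1, so the calls rest on the spread shared over all genes. Button pileus 1 lay nearest to the primordia in 484 of the 674 genes that fell and in 195 of the 305 that rose. Without it, 339 genes rose and 770 fell. When all 33 libraries shared a single estimate of the spread, 102 rose and 295 fell, and no gene was called in the opposite direction. Among the 1696 tested genes that only StringTie predicted 190 fell (11.2%), and among the 7558 that Augustus predicted 484 fell (6.40%), a difference that was not tested.

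**Figure D1:**
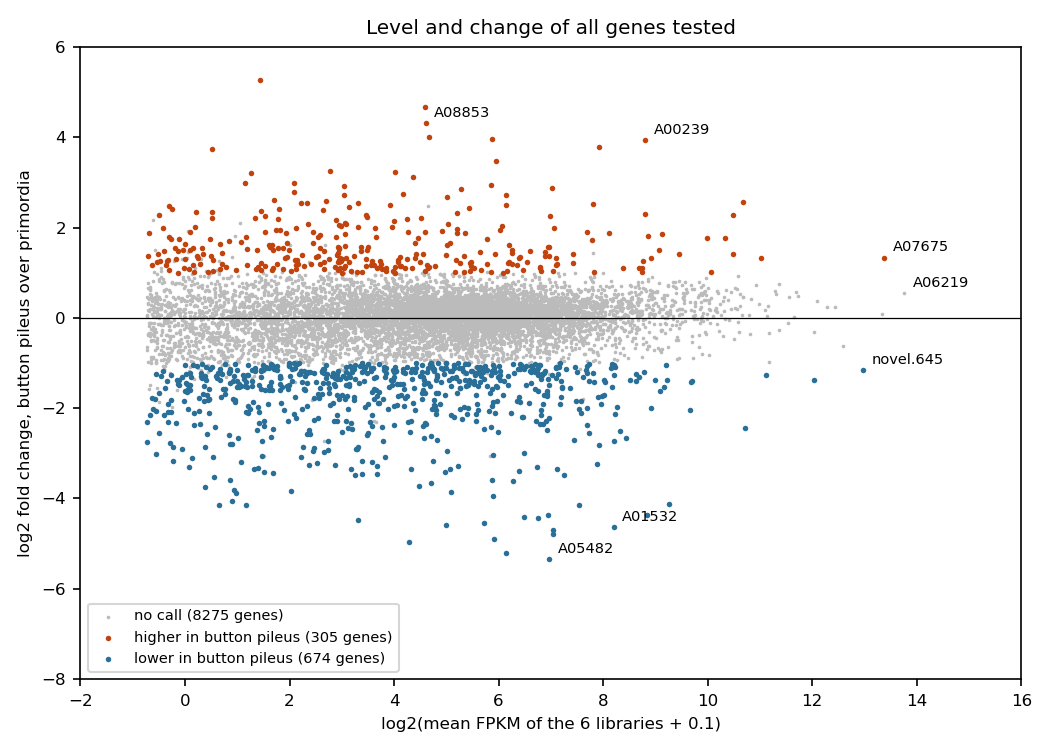
Each point is one of the 9254 genes tested, with log2 of its mean FPKM over the 6 libraries plus 0.1 on the x axis and its log2 fold change, button pileus over primordia, on the y axis. Orange points are the 305 genes that rose and blue points the 674 that fell, and the most abundant gene of the pileus, the hydrophobin A06219, is among the grey points without a call.

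The 10 largest rises were taken among genes with a Pfam domain, a mean of at least 10 FPKM in the higher group and no overlap of libraries. The first was A08853, described as a beta-L-arabinofuranosidase of family GH127, an enzyme that takes arabinose off plant or plant-like glycans (contig 7, 1156557 to 1159809). A08853 had 42.5, 45.9 and 50.6 FPKM in button pileus, against 2.40, 2.12 and 2.19 FPKM in primordia (log2 fold change 4.31 ± 0.11, adjusted p = 8.6e-06). All pileus libraries stood within a narrow band far above every primordia library. Next came A01837, with an FAD-binding domain as in oxidases of small molecules, at 38.9, 48.4 and 54.7 FPKM in button pileus, against 1.55, 3.19 and 4.48 FPKM in primordia (log2 fold change 4.01 ± 0.35, adjusted p = 0.00047). Its pileus libraries were less even than those of the arabinofuranosidase, and button pileus 1 was the lowest of them.

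Among these rises A00239, a class-I glutamine amidotransferase, a family that takes the amide nitrogen from glutamine, was by far the most abundant. It had 827, 812 and 886 FPKM in button pileus, against 56.3, 43.8 and 66.2 FPKM in primordia (log2 fold change 3.94 ± 0.15, adjusted p = 4.2e-05). The lowest pileus library was many times the highest primordia library, and the gene stood at 2191, 1517 and 5572 FPKM in the pileus at harvest. A06149, a gamma-glutamyl cyclotransferase of the AIG2-like kind, which opens gamma-glutamyl peptides, had 94.7, 135 and 135 FPKM in button pileus, against 17.5, 20.6 and 16.7 FPKM in primordia (log2 fold change 2.72 ± 0.16, adjusted p = 0.00017). Its call was lost in the fit of all 33 libraries (adjusted p = 0.099).

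A pair of transporters of the major facilitator superfamily, which move small solutes across membranes, were both among the 10. A01439 had 77.0, 116 and 139 FPKM in button pileus, against 6.41, 7.43 and 6.60 FPKM in primordia (log2 fold change 3.96 ± 0.20, adjusted p = 0.00012), and A01441 had 30.9, 34.5 and 44.4 FPKM in button pileus, against 3.48, 4.44 and 4.42 FPKM in primordia (log2 fold change 3.11 ± 0.17, adjusted p = 0.00012). They lie close together on contig 13, with A01440 between them, and are taken up again with their neighbours below. A01471, a BTB/POZ protein, a domain found in adaptors of ubiquitin ligases and in transcription factors, had 79.7, 109 and 119.6 FPKM in button pileus, against 10.2, 14.6 and 14.8 FPKM in primordia (log2 fold change 2.95 ± 0.20, adjusted p = 0.00024).

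The remaining rises of this set were smaller in level. A06340, with a xylose isomerase-like TIM barrel, had 7.06, 14.8 and 14.9 FPKM in button pileus, against 1.32, 0.822 and 1.31 FPKM in primordia (log2 fold change 3.26 ± 0.33, adjusted p = 0.00075). An inhibitor predicted by StringTie (contig 11, 404439 to 406067) belongs to peptidase inhibitor family I66, known from the trypsin inhibitor cospin of Coprinopsis cinerea, and had 39.6, 7.59 and 42.3 FPKM in button pileus, against 2.06, 2.45 and 2.69 FPKM in primordia (log2 fold change 3.24 ± 0.61, adjusted p = 0.0067). Button pileus 2 was far below the other pileus libraries of the inhibitor, though still above the primordia. A00861, a dienelactone hydrolase, had 9.86, 11.8 and 10.99 FPKM in button pileus, against 2.62, 1.47 and 1.33 FPKM in primordia (log2 fold change 2.59 ± 0.25, adjusted p = 0.00067). Like all of this set, they were chosen for libraries that did not overlap.

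The largest fall was that of A05482, described as a glutathione-dependent formaldehyde-activating enzyme, which binds formaldehyde to glutathione in detoxification (contig 29, 35049 to 35630). It had 5.86, 4.20 and 6.001 FPKM in button pileus, against 113, 244 and 377 FPKM in primordia (log2 fold change -5.34 ± 0.40, adjusted p = 0.00032). The call was lost in the fit of all 33 libraries (adjusted p = 0.066). In mycelia the same gene stood at 375, 1295 and 2615 FPKM. A02878, a major facilitator transporter, was nearly silent in the pileus, at 1.42, 0.136 and 1.14 FPKM in button pileus, against 5.11, 36.7 and 71.4 FPKM in primordia (log2 fold change -4.97 ± 1.05, adjusted p = 0.01). It too lost its call in that fit (adjusted p = 0.068).

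A01532, a hydrophobin, fell more than any other member of its family, with 33.2, 16.7 and 17.002 FPKM in button pileus, against 897, 442 and 367 FPKM in primordia (log2 fold change -4.63 ± 0.38, adjusted p = 0.00039). Hydrophobins are small secreted proteins that coat hyphae with a water-repellent film. A05467, a cytochrome P450, had 19.5, 7.40 and 4.01 FPKM in button pileus, against 199, 409 and 154 FPKM in primordia (log2 fold change -4.78 ± 0.58, adjusted p = 0.0014). A05063 carries the domain of an enoyl-acyl carrier protein reductase and had 28.5, 5.78 and 5.23 FPKM in button pileus, against 228, 282 and 243 FPKM in primordia (log2 fold change -4.70 ± 0.59, adjusted p = 0.0015). Within the pileus the values of A05063 were uneven, with button pileus 1 the highest, but still far below the primordia.

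A01070 and A01071 are neighbours on contig 12. A01071, an NADPH-dependent FMN reductase, had 25.5, 1.04 and 1.41 FPKM in button pileus, against 118, 134 and 142 FPKM in primordia (log2 fold change -5.21 ± 1.06, adjusted p = 0.009). A01070, a short-chain dehydrogenase, had 2.37, 0.370 and 0.268 FPKM in button pileus, against 14.3, 31.002 and 10.4 FPKM in primordia (log2 fold change -4.47 ± 0.74, adjusted p = 0.0042). Both were highest in button pileus 1 among the pileus libraries. The next short-chain dehydrogenase on that contig, A01072, fell as well, with 21.0, 11.1 and 12.2 FPKM in button pileus, against 131, 193 and 135 FPKM in primordia (log2 fold change -3.40 ± 0.26, adjusted p = 0.00033).

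A06584 belongs to the voltage-dependent anion channel family, which holds the sulfite exporter Ssu1 of yeast, and had 21.7, 8.02 and 4.70 FPKM in button pileus, against 196, 217 and 199 FPKM in primordia (log2 fold change -4.43 ± 0.48, adjusted p = 0.00092). A model predicted by StringTie (contig 18, 607891 to 611981) joins an O-methyltransferase with a transporter domain and overlaps another gene of the table, so its reads may be shared. It had 23.3, 8.52 and 6.76 FPKM in button pileus, against 258, 272 and 169 FPKM in primordia (log2 fold change -4.36 ± 0.44, adjusted p = 0.00075). A07516, with a protein tyrosine kinase domain, closed the set with 23.1, 4.31 and 3.07 FPKM in button pileus, against 77.4, 122 and 126 FPKM in primordia (log2 fold change -3.95 ± 0.68, adjusted p = 0.0051). The largest falls were chosen under the same conditions as the rises, so the lack of overlap was set by the choice.

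Genes without any description moved as far. A07790 had 32.0, 51.8 and 55.7 FPKM in button pileus, against 1.31, 1.40 and 2.60 FPKM in primordia (log2 fold change 4.67 ± 0.30, adjusted p = 0.00023). A07611 had 361, 479 and 499 FPKM in button pileus, against 45.3, 52.8 and 13.4 FPKM in primordia (log2 fold change 3.79 ± 0.48, adjusted p = 0.0015), and did not keep its call in the fit of all 33 libraries (adjusted p = 0.16). The third, predicted by StringTie on contig 7, 1713778 to 1715580, had 72.8, 82.5 and 186 FPKM in button pileus, against 5.70, 10.2 and 13.8 FPKM in primordia (log2 fold change 3.47 ± 0.42, adjusted p = 0.0014). What these proteins do is not given.

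Undescribed falls were led by A00423, with 12.6, 1.07 and 3.35 FPKM in button pileus, against 129, 78.2 and 138 FPKM in primordia (log2 fold change -4.90 ± 0.76, adjusted p = 0.0034). A05211 had 16.03, 0.442 and 1.40 FPKM in button pileus, against 56.7, 45.6 and 69.5 FPKM in primordia (log2 fold change -4.58 ± 1.08, adjusted p = 0.015) and lost its call without button pileus 3. A gene predicted by StringTie on contig 7, 455691 to 457174 had 12.6, 1.95 and 2.88 FPKM in button pileus, against 92.1, 112 and 94.1 FPKM in primordia (log2 fold change -4.54 ± 0.60, adjusted p = 0.0018). In all of them button pileus 1 was the pileus library nearest to the primordia.

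**Figure D2:**
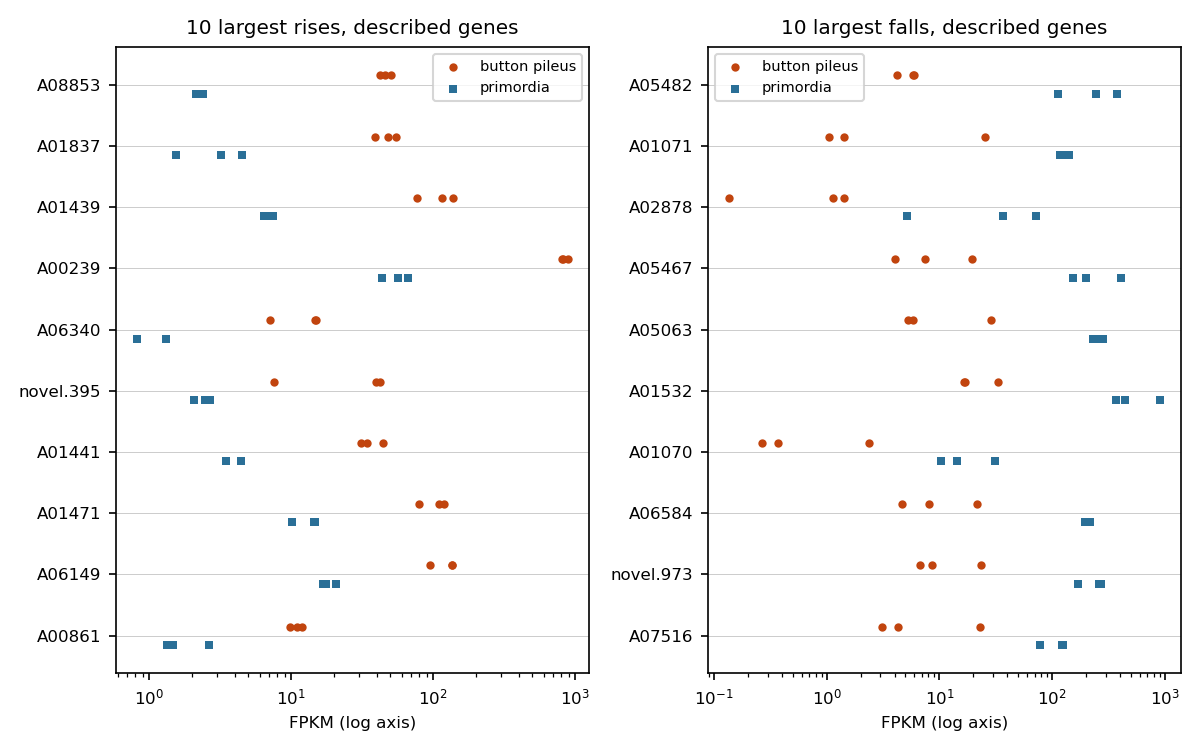
FPKM on a log axis in each button pileus library (orange circles, upper line of each gene) and each primordia library (blue squares, lower line) for the 10 described genes that rose most and the 10 that fell most. That the groups do not overlap was a condition for choosing these 20 genes. The pileus points of the falls are more scattered than those of the rises.

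The most abundant genes changed less. The hydrophobin A06219 was the highest gene of the pileus, with 21936, 12296 and 15505 FPKM in button pileus, against 10741, 9249 and 13427 FPKM in primordia (log2 fold change 0.55, adjusted p = 0.25), and its libraries overlapped. A07675, a Ser-Thr-rich membrane protein with a glycosyl-phosphatidyl-inositol anchor, rose, with 15107, 16604 and 13913 FPKM in button pileus, against 5787, 5094 and 7371 FPKM in primordia (log2 fold change 1.34 ± 0.28, adjusted p = 0.0099). Its call was lost without button pileus 2, primordia 1 or primordia 2, at an adjusted p of up to 0.057. The undescribed gene A05194 was among the highest in both groups, at 11389, 11084 and 9256 FPKM in button pileus, against 9252, 8761 and 12204 FPKM in primordia, and did not pass the test (adjusted p = 0.84). A gene predicted by StringTie on contig 14, 246480 to 247356 fell, with 6812, 5195 and 3363 FPKM in button pileus, against 9287, 11188 and 12553 FPKM in primordia (log2 fold change -1.15 ± 0.33, adjusted p = 0.028), a call that was lost in 5 of the 6 fits that left out a library.

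At the cell surface the hydrophobins fell or did not pass the test, and none rose. The table held 25 of them, of which 15 were tested and 5 fell (33.3%, against 7.28% of all genes). At an unadjusted p under 0.05 of limma 0 were higher and 6 lower, where 4714 of all 9254 genes passed in either direction. Voom on the reads called 0 rises and 5 falls. In the fit of all 33 libraries 1 of them, A01532, was called. The list's median log2 fold change was -0.65, against 0.04 over all genes. Besides A01532, the most abundant that fell was A01044, with 1898, 2093 and 3055 FPKM in button pileus, against 5976, 5020.0 and 7055 FPKM in primordia (log2 fold change -1.37 ± 0.25, adjusted p = 0.006). A07660 had 61.8, 16.1 and 42.0 FPKM in button pileus, against 285, 146 and 173 FPKM in primordia (log2 fold change -2.47 ± 0.48, adjusted p = 0.0075). Its neighbour A07659 and the nearby A07644 on contig 5 also fell but were below 3 FPKM in every library of both groups, and A07659 lost its call in 4 of the 6 fits that left out a library. In the fit of all 33 libraries the adjusted p was 0.56 for A01044, 0.29 for A07660, 0.35 for A07659 and 0.066 for A07644. A08707, the next after A06219 in level, had 5564, 3914 and 5137 FPKM in button pileus, against 8118, 6459 and 7957 FPKM in primordia (log2 fold change -0.63, adjusted p = 0.075) and did not pass the test.
Summed over all 25 genes of the list, tested or not, hydrophobin RNA lay at 18379 to 29549 FPKM in button pileus. In primordia it lay at 21429 to 29042 FPKM, and these ranges overlapped. A06219 was the largest part of it in every library. Reads of such similar genes may have been shared between copies, as it is not stated how reads with several alignments were handled.

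Few enzymes that build the wall were called. At the 3.3% and 7.28% of all genes that rose and fell, lists of this size would also hold few calls. None of 11 genes of chitin synthesis and none of 12 chitinases of family 18 was called, with medians of -0.07 and 0.21. At an unadjusted p under 0.05 of limma 2 of the chitin synthesis genes were lower, while 4 chitinases were higher and 3 lower. Of all 9254 genes 4714 passed that threshold. Voom called no gene of these lists. Of 20 genes of beta-glucan synthesis only A04463 was called, and not in the fit of all 33 libraries (adjusted p = 0.61 by limma). A04463 belongs to the SKN1 family, which acts in beta-1,6-glucan synthesis in yeast, and had 8.22, 10.1 and 13.4 FPKM in button pileus, against 4.94, 3.87 and 4.32 FPKM in primordia (log2 fold change 1.23 ± 0.20, adjusted p = 0.0037). A09963, the SKN1 member of highest level, had 328, 329 and 266 FPKM in button pileus, against 281, 297 and 241 FPKM in primordia (log2 fold change 0.17, adjusted p = 0.29).

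Enzymes that cut or alter the wall fell in a few cases. Among all genes 3.3% rose and 7.28% fell. A06159, of glycosyl hydrolase family 17, whose members cut beta-1,3-glucan, had 5.20, 1.99 and 4.15 FPKM in button pileus, against 32.7, 41.2 and 70.7 FPKM in primordia (log2 fold change -3.66 ± 0.39, adjusted p = 0.00092). A03178, with a glycosyl hydrolase catalytic core, had 83.1, 54.0 and 66.2 FPKM in button pileus, against 238, 205 and 230.1 FPKM in primordia (log2 fold change -1.74 ± 0.15, adjusted p = 0.00051). They were the 2 of 18 glucan hydrolases and transferases that fell, and none rose by limma or voom, with 2 higher at an unadjusted p under 0.05. Of 9 polysaccharide deacetylases, which turn chitin into chitosan or trim related polymers, A07388 and A09042 fell. A07388 had 36.0, 20.6 and 38.3 FPKM in button pileus, against 57.9, 194 and 342 FPKM in primordia (log2 fold change -2.36 ± 0.60, adjusted p = 0.019), and A09042 was low throughout, with 2.07, 0.414 and 1.18 FPKM in button pileus, against 3.07, 24.7 and 8.02 FPKM in primordia (log2 fold change -2.93 ± 0.79, adjusted p = 0.024). Both deacetylases lost their call without button pileus 2 or primordia 2, and A09042 also without button pileus 3 or primordia 3 (adjusted p up to 0.068 and 0.071). Among 26 proteins of the expansin-like, cerato-platanin, thaumatin and LysM kinds, 1 rose. This was A07435, a lytic transglycolase with the barrel fold of expansins, with 278, 316 and 316 FPKM in button pileus, against 167, 166 and 121 FPKM in primordia (log2 fold change 1.02 ± 0.14, adjusted p = 0.0021), and its log2 fold change dropped to as little as 0.86 when a library was left out.

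Many lectins and pore-forming proteins of fruit bodies are toxic to animals that feed on mushrooms. Of 14 tested 2 rose (14.3%) and 3 fell (21.4%), where 3.3% and 7.28% of all genes did. A04976, a ricin-type beta-trefoil lectin, was abundant and rose, with 2637, 3121 and 3107 FPKM in button pileus, against 1019, 1099.7 and 1419.9 FPKM in primordia (log2 fold change 1.34 ± 0.17, adjusted p = 0.0017). A07014, of the same fold, had 5.72, 7.90 and 11.6 FPKM in button pileus, against 2.97, 2.82 and 3.42 FPKM in primordia (log2 fold change 1.37 ± 0.25, adjusted p = 0.0061). A08842, a lectin of the fungal fruit body family, fell, with 5.99, 7.25 and 9.04 FPKM in button pileus, against 26.1, 26.4 and 34.1 FPKM in primordia (log2 fold change -1.95 ± 0.18, adjusted p = 0.00052), and A02390 fell at under 2 FPKM in every library. The summed level of the list, A04976 included, was 3372 to 3828 FPKM in button pileus, against 1772 to 2601 FPKM in primordia.

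Laccases, which oxidise phenols with copper, moved both ways. Of 18 multicopper oxidases 2 rose (11.1%) and 3 fell (16.7%), where 3.3% and 7.28% of all genes did. A05193 rose, with 1006, 927 and 686 FPKM in button pileus, against 217, 212 and 291 FPKM in primordia (log2 fold change 1.86 ± 0.18, adjusted p = 0.00069), but its call was lost in the fit of all 33 libraries (adjusted p = 0.06 by limma). A00941 rose at a low level, with 4.35, 2.73 and 3.03 FPKM in button pileus, against 0.903, 0.655 and 1.18 FPKM in primordia (log2 fold change 1.78 ± 0.28, adjusted p = 0.0034). The neighbours A05292 and A05293 on contig 26 both fell. A05292 had 4.33, 4.10 and 2.74 FPKM in button pileus, against 11.6, 10.3 and 9.99 FPKM in primordia (log2 fold change -1.51 ± 0.19, adjusted p = 0.0015), and A05293 had 1.53, 1.79 and 1.12 FPKM in button pileus, against 7.14, 7.75 and 5.44 FPKM in primordia (log2 fold change -2.13 ± 0.22, adjusted p = 0.00083).

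The tyrosinases, which turn phenols into the precursors of brown pigment, had 1 member of 5 that rose, where 3.3% of all genes did. This was A08292, with 82.4, 71.4 and 63.9 FPKM in button pileus, against 17.8, 10.6 and 12.4 FPKM in primordia (log2 fold change 2.43 ± 0.19, adjusted p = 0.00036). The member of highest level, A02061, had 2143, 1559.6 and 673 FPKM in button pileus, against 1804, 1238 and 1913 FPKM in primordia (log2 fold change -0.31, adjusted p = 0.57) and its groups overlapped. A00406 had 595, 481 and 415 FPKM in button pileus, against 785, 1026 and 919 FPKM in primordia (log2 fold change -0.88, adjusted p = 0.0067), with all pileus libraries below all primordia libraries, but missed the size required. A02012 and A02039 did not pass the test either, with log2 fold changes of -1.13 and 0.37.

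Of 137 cytochrome P450 genes, haem enzymes that insert oxygen into small molecules, 9 rose (6.57%) and 22 fell (16.1%), where 3.3% and 7.28% of all genes did, with a median of -0.18. A10019 was the abundant member that rose, with 271, 329.8 and 377 FPKM in button pileus, against 75.6, 69.7 and 121 FPKM in primordia (log2 fold change 1.90 ± 0.22, adjusted p = 0.0012), and A00113 rose most, at 3.84, 3.51 and 6.14 FPKM in button pileus, against 0.583, 0.811 and 0.949 FPKM in primordia (log2 fold change 2.36 ± 0.28, adjusted p = 0.0013). After A05467, the largest fall was that of A00981, with 11.2, 6.06 and 5.55 FPKM in button pileus, against 47.9, 68.1 and 55.4 FPKM in primordia (log2 fold change -2.95 ± 0.27, adjusted p = 0.00052). A08561, the P450 of highest level, fell too, with 241, 106 and 274 FPKM in button pileus, against 787, 398 and 384 FPKM in primordia (log2 fold change -1.37 ± 0.41, adjusted p = 0.034), but lost the call without button pileus 2, primordia 1 or primordia 2 (adjusted p up to 0.08).

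Among 25 genes of terpene and polyketide synthesis 2 rose (8%) and 6 fell (24%), where 3.3% and 7.28% of all genes did. The 6 included 3 of the 8 terpene synthases, which close isoprenoid chains into ring compounds, and none of the 8 rose. A01874 had 2.55, 3.27 and 2.92 FPKM in button pileus, against 7.37, 27.9 and 37.7 FPKM in primordia (log2 fold change -2.73 ± 0.54, adjusted p = 0.0083). A01597 had 1.29, 0.942 and 0.659 FPKM in button pileus, against 2.14, 14.96 and 42.2 FPKM in primordia (log2 fold change -3.45 ± 0.94, adjusted p = 0.025), but its call was lost without button pileus 2, button pileus 3 or primordia 2. A01609 had 0.348, 0.0869 and 0.236 FPKM in button pileus, against 2.30, 2.93 and 2.20 FPKM in primordia (log2 fold change -3.07 ± 0.37, adjusted p = 0.0014). All 3 are on contig 14. An O-methyltransferase moved the other way, since A08582 had 99.9, 109 and 129 FPKM in button pileus, against 52.3, 31.6 and 37.2 FPKM in primordia (log2 fold change 1.51 ± 0.19, adjusted p = 0.0015).

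Short-chain dehydrogenases and aldo-keto reductases, which reduce or oxidise carbonyl groups with NADPH or NADH, had 11 falls (14.1%) and 3 rises among 78 genes. Among all genes 7.28% fell. The share of rises, 3.85%, was near the 3.3% of all genes. The rises were led by aldo-keto reductases. A06051 had 363, 386 and 386 FPKM in button pileus, against 59.0, 57.3 and 85.6 FPKM in primordia (log2 fold change 2.51 ± 0.15, adjusted p = 0.00019), and A01507, the gene of the list with the highest level, had 1659, 1494 and 1405 FPKM in button pileus, against 887, 247 and 405 FPKM in primordia (log2 fold change 1.77 ± 0.41, adjusted p = 0.014). Of 62 antioxidant and glutathione enzymes 18 were higher and 16 lower at an unadjusted p under 0.05 of limma. Of all 9254 genes 4714 passed that threshold. With adjustment none rose by limma or voom, and 7 enzymes fell by limma (11.3%, against 7.28% of all genes). All 7 falls were among the 37 glutathione S-transferases. The largest was A05001, with 1.75, 0.724 and 1.58 FPKM in button pileus, against 12.9, 15.1 and 11.3 FPKM in primordia (log2 fold change -3.26 ± 0.31, adjusted p = 0.00062). A09071, a manganese or iron superoxide dismutase and the list's most abundant gene, had 829, 720.0 and 721 FPKM in button pileus, against 1451, 1379 and 1169 FPKM in primordia (log2 fold change -0.81, adjusted p = 0.0039) and did not reach the size required.

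Of 69 peroxidases and GMC oxidoreductases, where GMC stands for glucose, methanol and choline, 5 rose (7.25%) and 6 fell (8.70%). Among all genes 3.3% rose and 7.28% fell, so the falls lay near that share. A03058 and A03060 are close together on contig 19 and moved in opposite directions. A03058 had 2.33, 2.66 and 2.62 FPKM in button pileus, against 0, 0.159 and 0.200 FPKM in primordia (log2 fold change 3.73 ± 0.45, adjusted p = 0.0013), and A03060 had 13.3, 13.5 and 13.7 FPKM in button pileus, against 59.9, 76.1 and 58.7 FPKM in primordia (log2 fold change -2.25 ± 0.11, adjusted p = 0.00012). The abundant A01663, also a GMC oxidoreductase, fell, with 129.7, 52.6 and 62.2 FPKM in button pileus, against 365, 507 and 659 FPKM in primordia (log2 fold change -2.72 ± 0.35, adjusted p = 0.0017). A09158, a haem peroxidase, rose, with 14.9, 27.3 and 34.9 FPKM in button pileus, against 3.65, 5.50 and 3.72 FPKM in primordia (log2 fold change 2.50 ± 0.32, adjusted p = 0.0016). Of 76 hydrolases of the plant cell wall 2 rose and 2 fell (2.63% each), below the shares of all genes. The rises were A00171, of family 61, now known as copper monooxygenases of cellulose, with 159, 200.3 and 218 FPKM in button pileus, against 91.0, 80.7 and 78.5 FPKM in primordia (log2 fold change 1.19 ± 0.13, adjusted p = 0.00091), and A07168, of the pectin-cutting family 28, with 16.9, 16.3 and 17.02 FPKM in button pileus, against 6.53, 6.50 and 7.66 FPKM in primordia (log2 fold change 1.27 ± 0.11, adjusted p = 0.00041).

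**Figure D3:**
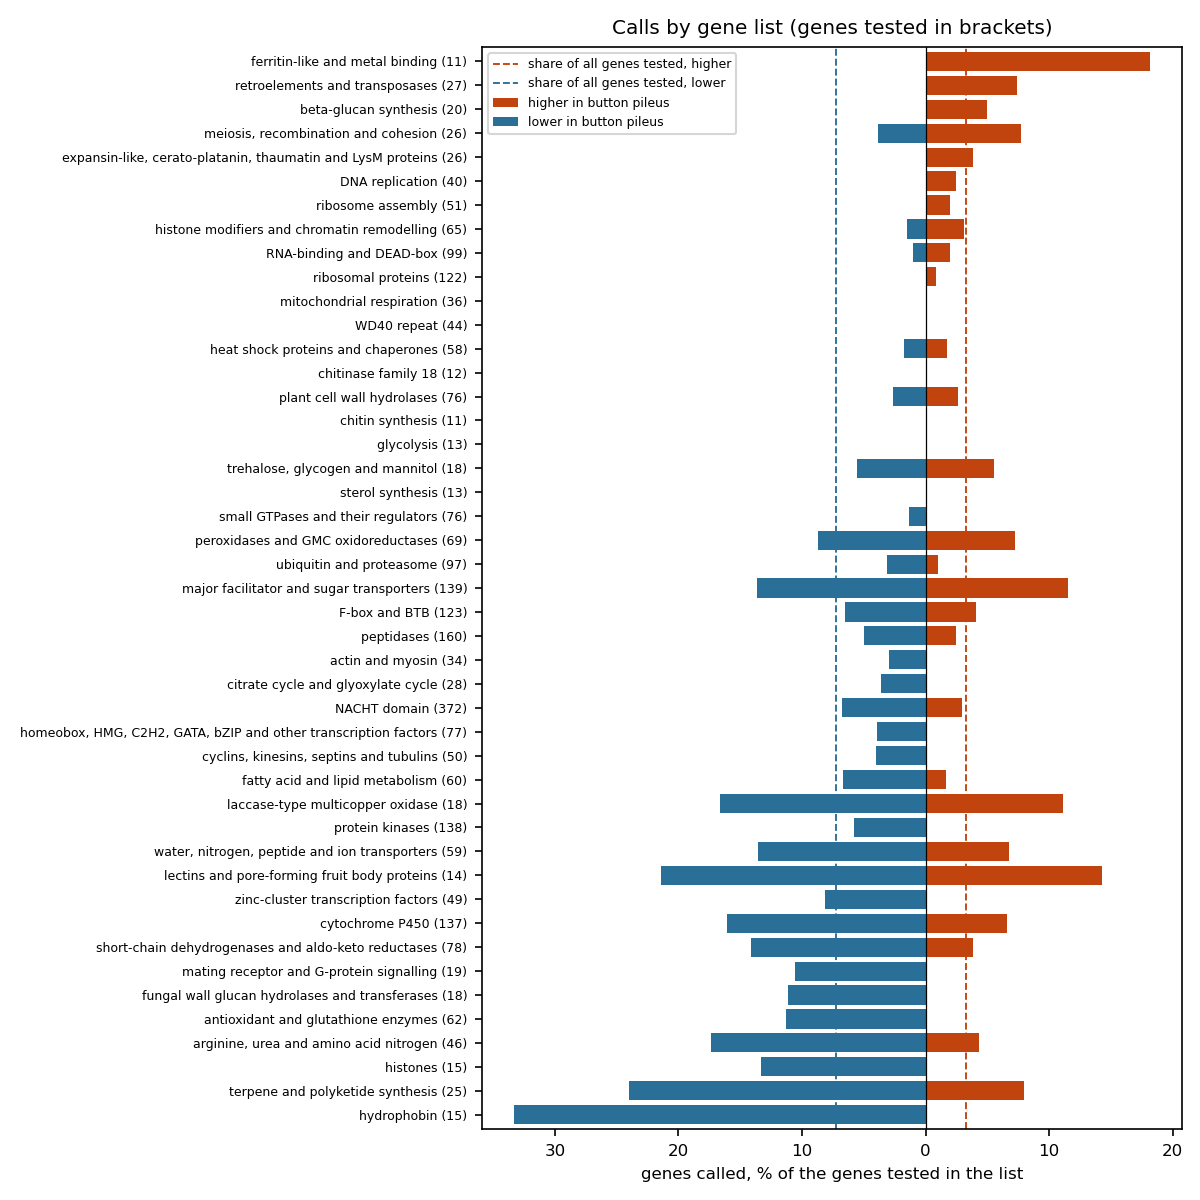
Share of each list's tested genes that rose (orange, to the right) or fell (blue, to the left) in button pileus against primordia, in percent, for lists with at least 10 genes tested. Dashed lines mark the shares among all genes tested, 3.3% and 7.28%, and the hydrophobins reach furthest to the left with 33.3%.

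Transporters of the major facilitator superfamily and sugar transporters had 16 rises (11.5%) and 19 falls (13.7%) among 139 genes, both above the shares of all genes, with a median of -0.02 that turned to 0.04 under quantile scaling. Besides the genes above, A00527 was the abundant member that rose, with 715, 639 and 703 FPKM in button pileus, against 254, 272 and 301 FPKM in primordia (log2 fold change 1.32 ± 0.10, adjusted p = 0.00035). Of 59 carriers of water, nitrogen compounds, peptides and ions 4 rose (6.78%) and 8 fell (13.6%), where 3.3% and 7.28% of all genes did. Both sulfate permeases called, of 5 tested, fell. A05465, a sulfate permease, had 42.9, 21.0 and 15.7 FPKM in button pileus, against 268, 296 and 192 FPKM in primordia (log2 fold change -3.35 ± 0.35, adjusted p = 0.00084), and A08515 had 0.416, 0.0990 and 0.197 FPKM in button pileus, against 1.93, 2.43 and 2.16 FPKM in primordia (log2 fold change -2.86 ± 0.39, adjusted p = 0.002).

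Of 18 amino acid permeases 2 rose and 4 fell, where 3.3% and 7.28% of all genes did. A03944 had 149.97, 122 and 95.6 FPKM in button pileus, against 272, 444 and 281 FPKM in primordia (log2 fold change -1.42 ± 0.23, adjusted p = 0.0038). A00421 had 137, 87.0 and 83.6 FPKM in button pileus, against 63.7, 18.1 and 12.6 FPKM in primordia (log2 fold change 2.03 ± 0.55, adjusted p = 0.025), a call that was lost in 5 of the 6 fits that left out a library. A04472, a peptide carrier of the POT family, rose with more even libraries, at 58.0, 62.4 and 56.2 FPKM in button pileus, against 17.7, 12.96 and 14.5 FPKM in primordia (log2 fold change 1.97 ± 0.12, adjusted p = 0.0002).

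Nitrogen enzymes had 2 rises (4.35%) and 8 falls (17.4%) among 46 genes, with a median of -0.17. Among all genes 7.28% fell and 3.3% rose, so the share of rises was near that of all genes. Both rises were glutamine synthetases, which join ammonia to glutamate. A09824 had 729, 746 and 902 FPKM in button pileus, against 350.2, 203 and 298 FPKM in primordia (log2 fold change 1.51 ± 0.20, adjusted p = 0.0019), and A06137 had 14.5, 16.3 and 24.7 FPKM in button pileus, against 3.22, 4.06 and 3.98 FPKM in primordia (log2 fold change 2.24 ± 0.21, adjusted p = 0.0006). Another of the 5 glutamine synthetases tested, A05846, fell, with 555, 330.2 and 498 FPKM in button pileus, against 844, 1481 and 1313 FPKM in primordia (log2 fold change -1.39 ± 0.26, adjusted p = 0.007). In every pileus library A09824 stood above A05846, and in every primordia library it stood below. The large chain of carbamoyl-phosphate synthetase, A01423, which feeds arginine and pyrimidine synthesis, fell slightly past the limit, with 389, 370.1 and 393 FPKM in button pileus, against 769.8, 927 and 706 FPKM in primordia (log2 fold change -1.05 ± 0.12, adjusted p = 0.0012), and was short of it without primordia 2 (log2 fold change -0.94). The 2 aromatic amino acid lyases tested, which release ammonia from phenylalanine or tyrosine, had 1 call in each direction. A01364 had 129, 150.2 and 169.5 FPKM in button pileus, against 107, 60.4 and 58.5 FPKM in primordia (log2 fold change 1.04 ± 0.23, adjusted p = 0.013), and its call was lost in 3 of the 6 fits that left out a library and in the fit of all 33 (adjusted p = 0.59). A01425 had 19.8, 20.8 and 25.1 FPKM in button pileus, against 29.5, 126 and 132 FPKM in primordia (log2 fold change -1.85 ± 0.53, adjusted p = 0.03), a call that was lost in 5 of the 6 fits (adjusted p up to 0.098).

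Of 60 genes of fatty acid and lipid metabolism 1 rose (1.67%) and 4 fell (6.67%), both below the 3.3% and 7.28% of all genes. Fatty acid desaturases, which put double bonds into acyl chains, made up 4 of these 5. A08732 had 9.93, 9.96 and 11.1 FPKM in button pileus, against 60.3, 178 and 193 FPKM in primordia (log2 fold change -3.61 ± 0.41, adjusted p = 0.0011), and a desaturase predicted by StringTie on contig 7, 733512 to 736680 had 5.62, 4.89 and 7.21 FPKM in button pileus, against 9.99, 21.1 and 26.6 FPKM in primordia (log2 fold change -1.59 ± 0.35, adjusted p = 0.011). A01674 had 90.5, 56.5 and 56.7 FPKM in button pileus, against 296, 359.8 and 372 FPKM in primordia (log2 fold change -2.36 ± 0.19, adjusted p = 0.00039). Its gene model joins a desaturase with a glutamate dehydrogenase, so the source of its reads within the model is not known. A04847 was the desaturase that rose, with 54.2, 64.9 and 65.5 FPKM in button pileus, against 28.5, 22.3 and 28.1 FPKM in primordia (log2 fold change 1.23 ± 0.13, adjusted p = 0.00076).

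Central carbon metabolism changed in few genes. Among all genes 3.3% rose and 7.28% fell. None of 13 glycolysis genes and none of 36 genes of mitochondrial respiration was called by limma or voom. At an unadjusted p under 0.05 the counts were 2 higher and 2 lower in glycolysis and 6 higher and 2 lower in respiration. Of all 9254 genes 4714 passed that threshold. Of 28 genes of the citrate and glyoxylate cycles 1 fell. That gene, A00991, has the domains of ATP-citrate lyase, which makes acetyl-CoA in the cytosol, with 31.9, 27.7 and 25.2 FPKM in button pileus, against 66.1, 69.4 and 61.5 FPKM in primordia (log2 fold change -1.22 ± 0.10, adjusted p = 0.00044). Of 18 genes of trehalose, glycogen and mannitol 1 rose and 1 fell. The fall was that of the alpha-amylase A09705, with 260.1, 241 and 202 FPKM in button pileus, against 581, 605 and 480.5 FPKM in primordia (log2 fold change -1.25 ± 0.13, adjusted p = 0.00089). Of 11 ferritin-like and metal genes 2 rose at low levels, the ferric reductase A00066, with 11.2, 6.39 and 10.5 FPKM in button pileus, against 2.53, 2.23 and 2.66 FPKM in primordia (log2 fold change 1.84 ± 0.23, adjusted p = 0.0015), and A00797, of a family that builds siderophores, with 7.73, 4.77 and 5.49 FPKM in button pileus, against 2.42, 2.20 and 2.44 FPKM in primordia (log2 fold change 1.28 ± 0.20, adjusted p = 0.0034).

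No transcription factor of the lists rose by limma or voom. Of 49 zinc-cluster factors 4 fell (8.16%) and of 77 others 3 fell (3.90%). Among all genes 3.3% rose and 7.28% fell, so these falls lay near or below that share. At an unadjusted p under 0.05, 7 zinc-cluster factors were higher and 15 lower, and 23 of the others were higher and 18 lower. Of all 9254 genes 4714 passed that threshold. The largest change was that of A04915, of the TEA/ATTS family, which holds the developmental regulators AbaA of Aspergillus and Tec1 of yeast (contig 22, 366122 to 367580). A04915 had 23.6, 16.6 and 26.1 FPKM in button pileus, against 108, 319 and 421 FPKM in primordia (log2 fold change -3.48 ± 0.47, adjusted p = 0.0019), and every primordia library was several times the highest pileus library. Homeobox proteins, DNA-binding regulators of development, had 2 falls among 7 genes. A01390 had 69.1, 49.4 and 40.6 FPKM in button pileus, against 142, 178 and 146 FPKM in primordia (log2 fold change -1.57 ± 0.19, adjusted p = 0.0014), and a homeobox gene predicted by StringTie on contig 23, 188776 to 191605 had 19.2, 16.01 and 11.7 FPKM in button pileus, against 42.5, 40.7 and 36.6 FPKM in primordia (log2 fold change -1.37 ± 0.18, adjusted p = 0.0016).

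Among zinc-cluster factors, a class found in fungi, A09428 fell, with 62.6, 55.2 and 74.2 FPKM in button pileus, against 117, 202 and 241 FPKM in primordia (log2 fold change -1.49 ± 0.26, adjusted p = 0.0051), and a factor predicted by StringTie on contig 4, 1292670 to 1298152 fell, with 8.43, 8.78 and 7.50 FPKM in button pileus, against 30.9, 23.8 and 30.8 FPKM in primordia (log2 fold change -1.77 ± 0.13, adjusted p = 0.00032). A04217, a helix-loop-helix protein and the most abundant factor of the lists, had 2231, 2118 and 1835 FPKM in button pileus, against 2414, 2892 and 2441 FPKM in primordia (log2 fold change -0.32, adjusted p = 0.15). Its pileus libraries were all below its primordia libraries, by less than the size required.

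Of 138 protein kinases 8 fell (5.80%), near the 7.28% of all genes, and none rose, where 3.3% of all genes did. Voom gave the same counts, and at an unadjusted p under 0.05 32 were higher and 32 lower, where 4714 of all 9254 genes passed. After A07516 came A05084, with 32.6, 7.07 and 2.56 FPKM in button pileus, against 92.2, 106 and 108 FPKM in primordia (log2 fold change -3.58 ± 0.78, adjusted p = 0.011), and A03511, with 8.36, 5.12 and 4.64 FPKM in button pileus, against 49.7, 67.6 and 66.5 FPKM in primordia (log2 fold change -3.36 ± 0.23, adjusted p = 0.00026). In A05084 button pileus 1 stood apart from the other pileus libraries on the side of the primordia. Of 19 genes of mating receptors and G-protein signalling 2 fell. A01884, a G-protein alpha subunit, had 2.62, 2.24 and 2.18 FPKM in button pileus, against 7.72, 6.81 and 7.01 FPKM in primordia (log2 fold change -1.57 ± 0.14, adjusted p = 0.00052). A02085, a receptor for mating pheromone of the kind that senses lipopeptides, had 1.15, 1.29 and 1.07 FPKM in button pileus, against 3.01, 2.32 and 2.13 FPKM in primordia (log2 fold change -1.01 ± 0.21, adjusted p = 0.0094), and its fold change missed the limit without button pileus 3 or primordia 1. A04826, which joins RhoGAP and RasGEF domains that switch small GTPases, was the only one of 76 small GTPases and regulators that was called, with 62.8, 47.4 and 53.4 FPKM in button pileus, against 165, 208 and 164 FPKM in primordia (log2 fold change -1.71 ± 0.14, adjusted p = 0.00036).

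F-box and BTB proteins, adaptors that choose targets for ubiquitin, had 5 rises (4.07%) and 8 falls (6.50%) among 123 genes, close to the shares of all genes. Besides A01471, the F-box protein A05289 rose, with 3.58, 4.88 and 7.91 FPKM in button pileus, against 0.428, 0.854 and 1.18 FPKM in primordia (log2 fold change 2.61 ± 0.40, adjusted p = 0.0032). An F-box gene predicted by StringTie on contig 6, 1434778 to 1436258 fell, with 1.16, 0.761 and 0.661 FPKM in button pileus, against 12.8, 3.23 and 15.2 FPKM in primordia (log2 fold change -3.21 ± 0.56, adjusted p = 0.0051). Cyclins, which drive the cell cycle, included 2 falls. A06265 had 99.8, 102 and 113 FPKM in button pileus, against 274, 631 and 572 FPKM in primordia (log2 fold change -2.14 ± 0.29, adjusted p = 0.002), and A03462 had 91.1, 82.7 and 85.8 FPKM in button pileus, against 137, 224 and 199.5 FPKM in primordia (log2 fold change -1.08 ± 0.17, adjusted p = 0.0038), a call that was lost without primordia 2.

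Nearly all ribosomal proteins had a positive log2 fold change below the limit of size. Of 122 tested 116 were positive, with a median of 0.47, against 0.04 over all genes, and this median was 0.40 to 0.47 under the other scalings. Only a gene of the L29e family, predicted by StringTie on contig 2, 140782 to 142234, was called, with 92.3, 208 and 74.9 FPKM in button pileus, against 44.5, 40.2 and 48.3 FPKM in primordia (log2 fold change 1.35 ± 0.34, adjusted p = 0.019), and not without button pileus 2 or primordia 2. By the adjusted p alone 70 of the 122 were higher and 1 lower in button pileus, where 21.2% and 19.2% of all genes were. The summed level was 57416 to 82676 FPKM in button pileus, against 41811 to 52279 FPKM in primordia, so that the ranges did not overlap. A07979, an acidic protein of the large subunit and the list's most abundant gene, had 1865, 2344 and 3119.9 FPKM in button pileus, against 1516, 1272 and 1588 FPKM in primordia (log2 fold change 0.72, adjusted p = 0.033).

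Ribosome assembly factors and DNA replication genes were also mostly positive. Among 51 assembly genes 43 were positive, with a median of 0.22, and by the adjusted p alone 19 were higher and 2 lower. Of 40 replication genes 37 were positive, with a median of 0.31, and 18 were higher and 1 lower. Over all genes the median was 0.04, and by the adjusted p alone 21.2% were higher and 19.2% lower. A single gene of each list reached the size required. A07299, of the U3 ribonucleoprotein that processes ribosomal RNA, had 17.7, 21.1 and 25.01 FPKM in button pileus, against 10.8, 10.4 and 9.99 FPKM in primordia (log2 fold change 1.01 ± 0.14, adjusted p = 0.0019), and A07137, with domains of the repair polymerase lambda, had 21.9, 23.3 and 19.3 FPKM in button pileus, against 12.4, 10.1 and 9.66 FPKM in primordia (log2 fold change 1.002 ± 0.13, adjusted p = 0.0016). These calls lay at the limit of size and were lost in 2 and in 4 of the 6 fits that left out a library. Cyclins, kinesins, septins and tubulins were positive in 40 of 50 genes, with a median of 0.28, although the calls among them were the 2 cyclins that fell.

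Histones had a positive median of 0.39 over 15 genes, and 2 fell (13.3%). Among all genes 3.3% rose and 7.28% fell. A04602, the linker histone H1, had 82.3, 62.6 and 48.4 FPKM in button pileus, against 127, 114 and 159.6 FPKM in primordia (log2 fold change -1.07 ± 0.20, adjusted p = 0.0073), and its call was lost without button pileus 3 or primordia 3. The core histone A02277, at under 12 FPKM in every library, lost its call in 4 of the 6 such fits. A08404, an H2A and the most abundant core histone, had 4666, 4816 and 5251 FPKM in button pileus, against 3358, 3364 and 4787 FPKM in primordia (log2 fold change 0.38, adjusted p = 0.2). Among 65 histone modifiers and remodelling enzymes 2 rose and 1 fell. A07436, a helicase of the SNF2 family that moves nucleosomes, had 30.3, 36.4 and 35.7 FPKM in button pileus, against 14.9, 13.2 and 10.4 FPKM in primordia (log2 fold change 1.42 ± 0.15, adjusted p = 0.00081).

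Of 97 genes of ubiquitin and the proteasome 1 rose and 3 fell, and of 99 RNA-binding and DEAD-box proteins 2 rose and 1 fell. Of 34 actin and myosin genes 1 fell. The shares in these lists were all below the 3.3% and 7.28% of all genes. None of 13 genes of sterol synthesis and none of 44 WD40 repeat proteins was called by limma or voom. At an unadjusted p under 0.05 the counts were 8 higher and 2 lower for sterol synthesis and 17 higher and 6 lower for WD40 repeats. Of all 9254 genes 4714 passed that threshold.

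Genes of meiosis, recombination and cohesion had 2 rises (7.69%) and 1 fall (3.85%) among 26, with a median of 0.36. Of all genes 3.3% rose and 7.28% fell. A09162 belongs to the type IIB topoisomerases, the family of Spo11, which cuts DNA to start meiotic recombination. A09162 had 4.85, 6.43 and 5.998 FPKM in button pileus, against 1.46, 1.81 and 2.04 FPKM in primordia (log2 fold change 1.65 ± 0.19, adjusted p = 0.0012). A04098, of the Rad21 and Rec8 family of cohesin subunits, which hold sister chromatids together, had 136, 114 and 144 FPKM in button pileus, against 69.8, 47.1 and 50.7 FPKM in primordia (log2 fold change 1.25 ± 0.16, adjusted p = 0.0017). Every pileus library of both was above every primordia library, but 55% of all genes tested did not overlap either. Neither kept its call in the fit of all 33 libraries (adjusted p = 0.25 and 0.51 by limma). A06794, a MutS protein of the family that repairs mismatches and stabilises crossovers, fell, with 22.8, 24.8 and 21.9 FPKM in button pileus, against 46.3, 52.3 and 43.9 FPKM in primordia (log2 fold change -1.03 ± 0.10, adjusted p = 0.00056), and its fold change missed the limit without button pileus 3 or primordia 2. The call of A06794 was also lost in the fit of all 33 libraries (adjusted p = 0.31 by limma).

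**Figure D4:**
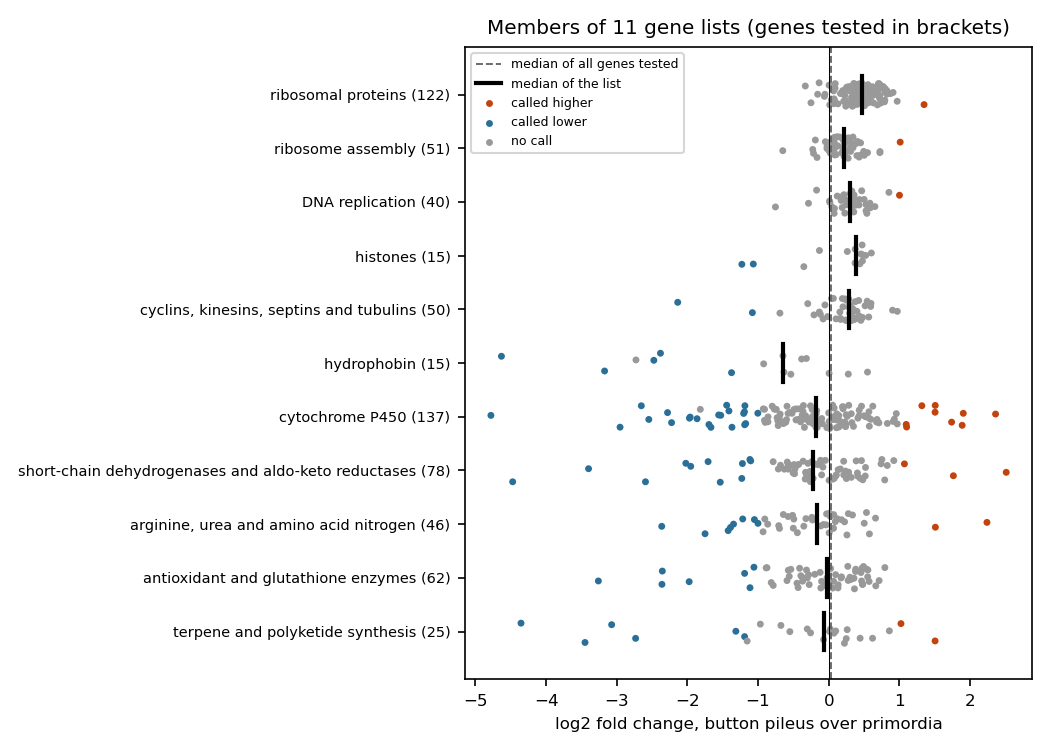
Log2 fold change, button pileus over primordia, of each tested member of 11 lists, with orange points for rises, blue points for falls and grey points for genes not called. Black bars are list medians and the dashed line is the median of all genes (0.04). The 122 ribosomal proteins centre on 0.47 with a single call, whereas the hydrophobins centre on -0.65 and spread down to -4.63.

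Of 160 peptidases 4 rose (2.50%) and 8 fell (5%), close to or below the 3.3% and 7.28% of all genes. A02263, a subtilase with an activation domain of kumamolisins, acid proteases that are secreted in other fungi, had 88.9, 109 and 166 FPKM in button pileus, against 19.6, 21.6 and 21.0 FPKM in primordia (log2 fold change 2.49 ± 0.21, adjusted p = 0.00039). A00898, a serine carboxypeptidase, had 9.58, 15.3 and 19.9 FPKM in button pileus, against 2.37, 2.05 and 3.31 FPKM in primordia (log2 fold change 2.45 ± 0.29, adjusted p = 0.0012). A08136, a carboxypeptidase of family S28, fell, with 6.59, 5.11 and 5.67 FPKM in button pileus, against 33.4, 31.4 and 35.7 FPKM in primordia (log2 fold change -2.52 ± 0.12, adjusted p = 0.00011). Among 58 chaperones 1 rose and 1 fell. A05314, a small heat shock protein of the Hsp20 family, had 128.3, 100.4 and 135 FPKM in button pileus, against 339, 428 and 426 FPKM in primordia (log2 fold change -1.72 ± 0.14, adjusted p = 0.00041), and A00599, a DnaJ co-chaperone, had 109, 123 and 125 FPKM in button pileus, against 60.8, 54.0 and 55.9 FPKM in primordia (log2 fold change 1.06 ± 0.09, adjusted p = 0.00039).

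NACHT proteins, which bind nucleotides and in fungi include sensors of nonself, formed the largest family in the table. Of 372 tested 11 rose (2.96%) and 25 fell (6.72%), close to the shares of all genes, and the median of -0.03 changed sign under quantile scaling. The members at the extremes were A08150, with 3.95, 4.20 and 4.57 FPKM in button pileus, against 0.381, 0.308 and 0.423 FPKM in primordia (log2 fold change 3.21 ± 0.21, adjusted p = 0.00024), and A03510, with 7.45, 4.62 and 4.03 FPKM in button pileus, against 42.9, 56.7 and 43.7 FPKM in primordia (log2 fold change -3.17 ± 0.23, adjusted p = 0.00032). Copies of this family may share reads. Of 215 retroelements and transposases 27 passed the filter on low values. A08699, with a gag domain of copia elements, and A00777, with a reverse transcriptase domain, rose. A08699 had 3.68, 4.88 and 5.42 FPKM in button pileus, against 1.85, 1.72 and 0.926 FPKM in primordia (log2 fold change 1.61 ± 0.29, adjusted p = 0.0057), and A00777 had 8.99, 11.2 and 12.998 FPKM in button pileus, against 4.43, 4.47 and 4.68 FPKM in primordia (log2 fold change 1.26 ± 0.15, adjusted p = 0.0014).

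Several genes that changed were neighbours. Among tested genes in their order on the contigs there were 34 runs of at least 3 genes called in the same direction, 6 of rises and 28 of falls, with 114 genes in all. These runs were looked for after the values were known, and no chance level was worked out for them. On contig 13, from 790361 to 812323, 4 transporters of the major facilitator superfamily rose side by side. They were A01439, A01440, A01441 and a gene predicted by StringTie, with log2 fold changes of 3.96, 1.29, 3.11 and 2.79. As members of a family they may share reads.

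On contig 28, from 183333 to 197963, the run of falls held A05465, the sulfate permease, A05466, a subunit of the proteasome lid, and A05467, the P450 above, next to the undescribed A05464. A05466 had 133, 105.2 and 113 FPKM in button pileus, against 337, 324 and 268 FPKM in primordia (log2 fold change -1.40 ± 0.12, adjusted p = 0.0005). On contig 1, from 919784 to 929631, the NACHT protein A03510 was followed by the kinase A03511, the 2-hydroxyacid dehydrogenase A03512 (log2 fold change -2.13) and an undescribed gene predicted by StringTie (log2 fold change -2.03). The glutathione S-transferases A05001, A05002 and A05003 fell side by side on contig 23, with log2 fold changes of -3.26, -2.35 and -1.11. The call of A05003 was lost in 4 of the 6 fits that left out a library (adjusted p up to 0.079), at a pseudocount of 1 and under quantile scaling, and A05002 and A05003 were not called in the fit of all 33 libraries (adjusted p = 0.26 and 0.39).

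The longest run was on contig 4, from 84564 to 94513, with 6 falls between -2.87 and -1.91 on the log2 scale, of which only A07219, an alpha/beta hydrolase, had a description. On contig 3, from 36800 to 49443, 5 genes fell. They included the sodium and hydrogen exchanger A06990, with 25.9, 14.9 and 16.1 FPKM in button pileus, against 89.4, 127.99 and 106 FPKM in primordia (log2 fold change -2.53 ± 0.22, adjusted p = 0.00051), and the undescribed A06991, with 138, 51.4 and 36.7 FPKM in button pileus, against 877, 993.97 and 1599 FPKM in primordia (log2 fold change -4.12 ± 0.47, adjusted p = 0.0012). Every pileus library of A06991 was far below its lowest primordia library.

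Whether a change was particular to the cap was read from the button stipe. The difference between button pileus and button stipe is at the same time the difference of their changes from the primordia, since the primordia cancel, and it was tested in a fit of 18 libraries of pileus and stipe at 3 stages. It shares the pileus libraries with the comparison above. The library labelled button stipe 1 correlated best with whole buttons 1 and 3 (0.975 and 0.968) and not with the other stipes. Maturation pileus 3 correlated at 0.883 and 0.896 with maturation pileus 1 and 2, which correlated at 0.986 with each other. Its correlations with the maturation stipes were 0.937 to 0.942. Each result is therefore also given without these 2 libraries. Of 9338 genes 739 were higher (7.91%) and 930 lower (9.96%) in button pileus than in button stipe. Without the 2 libraries 1283 were higher (13.7%) and 1468 lower (15.7%) of 9341. Scaling to the library totals gave 975 higher and 742 lower, and raised the median difference to 0.19, against 0.01 otherwise. The ribosomal proteins stood out, as 73 of 121 were higher in the pileus, 82 without the 2 libraries and 79 with library totals, and none was lower, with a median difference of 1.36.

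Among the genes named by rule and called in both comparisons, 21 had every pileus library on one side of all primordia libraries and every stipe library on the other. This pattern comes from the same values as the calls. In 10 of them the pileus was above. The undescribed A07611 had 361, 479 and 499 FPKM in button pileus, 0.717, 1.14 and 1.29 FPKM in button stipe and 45.3, 52.8 and 13.4 FPKM in primordia (log2 difference of pileus from stipe 8.62, adjusted p = 2.9e-05 by limma, and 8.39 without the 2 libraries). A07675, the abundant GPI-anchored protein, had 15107, 16604 and 13913 FPKM in button pileus, 3822, 1677 and 1461 FPKM in button stipe and 5787, 5094 and 7371 FPKM in primordia (2.85, adjusted p = 0.0032, and 3.28 without them). A04847, the desaturase, had 54.2, 64.9 and 65.5 FPKM in button pileus, 17.5, 4.71 and 6.26 FPKM in button stipe and 28.5, 22.3 and 28.1 FPKM in primordia (2.92, adjusted p = 9.7e-05, and 3.47). In A07675 and A04847 button stipe 1 was the stipe library closest to the pileus.

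In the other 11 the pileus was below and the stipe above. A01674, the desaturase model, had 90.5, 56.5 and 56.7 FPKM in button pileus, 489, 789.6 and 1189.5 FPKM in button stipe and 296, 359.8 and 372 FPKM in primordia (log2 difference -3.54, adjusted p = 4.9e-05 by limma, and -3.87 without the 2 libraries). The homeobox gene A01390 had 69.1, 49.4 and 40.6 FPKM in button pileus, 206, 241 and 247 FPKM in button stipe and 142, 178 and 146 FPKM in primordia (-2.15, adjusted p = 0.00022, and -2.23). The F-box gene predicted by StringTie had 1.16, 0.761 and 0.661 FPKM in button pileus, 105.1, 209 and 238 FPKM in button stipe and 12.8, 3.23 and 15.2 FPKM in primordia (-7.53, adjusted p = 7.1e-05, and -7.89).

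For other genes the stipe was not on the far side of the primordia. The TEA/ATTS gene A04915 had 30.1, 11.1 and 29.6 FPKM in button stipe, beside 23.6, 16.6 and 26.1 FPKM in button pileus, against 108, 319 and 421 FPKM in primordia, and pileus and stipe did not pass the test of their difference (log2 difference 0.02, adjusted p = 0.99 by limma, and 0.26 with an adjusted p of 0.64 without the 2 libraries). The largest described rise, A08853, stood at 2.27, 5.35 and 6.22 FPKM in button stipe and differed from the pileus (3.42, adjusted p = 0.0013, and 2.98). The glutamine amidotransferase A00239 had 1219.7, 153 and 121 FPKM in button stipe, with an adjusted p of 0.15 for its difference from the pileus (1.57, and 2.63 with an adjusted p of 0.0015 without the 2 libraries), and its highest value of all 9 was that of button stipe 1.

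**Figure D5:**
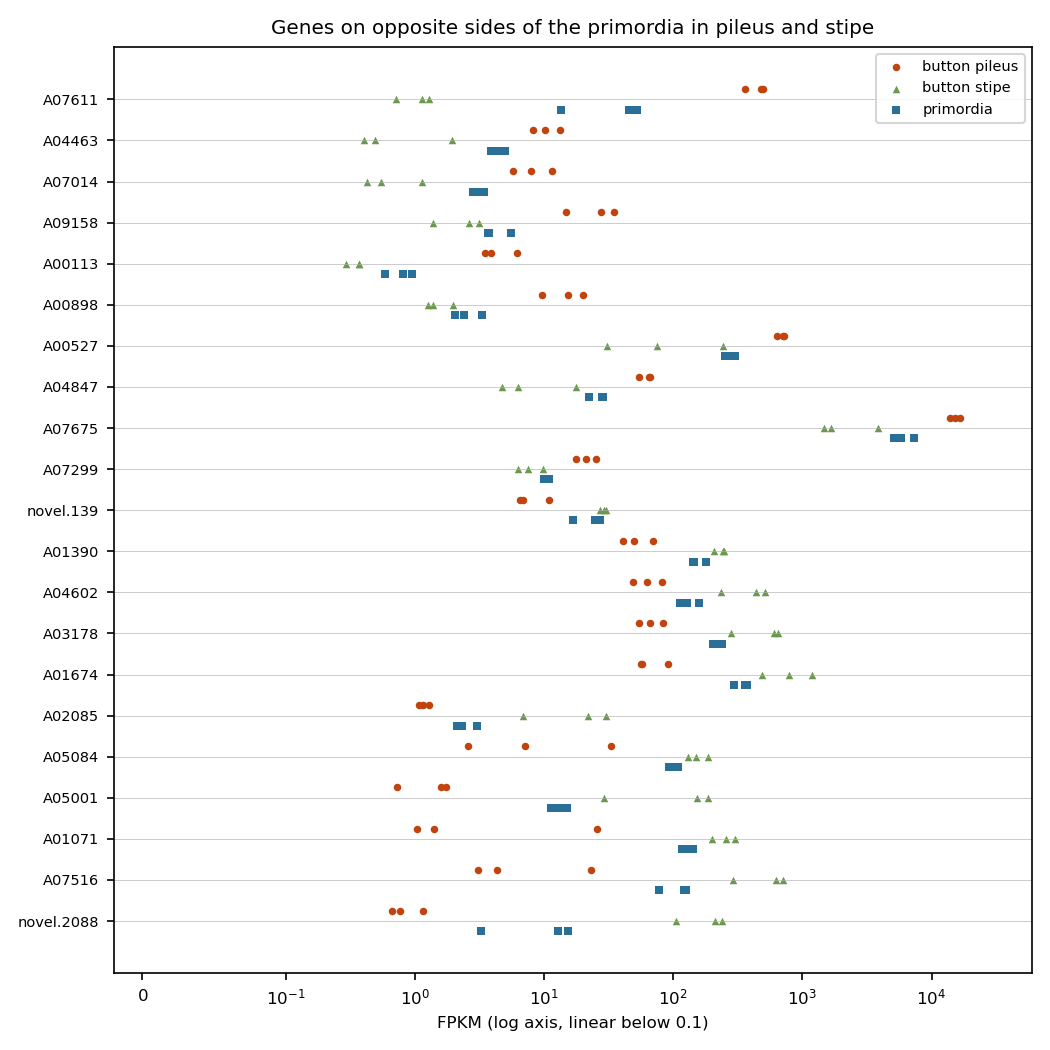
FPKM on a log axis in each library of button pileus, button stipe and primordia for 21 named genes called in both comparisons. Their pileus libraries lay on one side of all primordia libraries and their stipe libraries on the other. The 10 genes with the pileus above come first, and A07611 and the predicted F-box gene have the widest gaps, with log2 differences of 8.62 and -7.53.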

How the data were processed

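Total RNA was sequenced, and the authors used Hisat2 2.0.5 for alignment to the assembly named JA-15036, StringTie for further gene models, featureCounts 1.5.0-p3 for counting and DESeq2 for their tests. The deposited FPKM were made by the authors from those counts, and contig positions are those of that assembly. Strand setting, treatment of multiple alignments and FPKM formula: not given in the sources used here. So reads of overlapping genes (349 in the table, 27 of those called) and of multigene families are uncertain. Reads could be read back as whole numbers for 100% of values within 1e-06. The library size used by the authors was 1.12 to 1.18 times these reads, and intervals from reads would cover counting error only.

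For each gene with a mean of at least 0.5 FPKM, limma 3.58.1 (R 4.3.3, with an intensity trend) was run on log2(FPKM + 0.1), and p-values were adjusted by Benjamini and Hochberg over all genes tested. The scripts were tested on simulated data. The alternatives tried were a pseudocount of 1 or 0.01, a filter at 5 FPKM or none, 3 other scalings, voom on the reads, no trend, Augustus genes only, all 33 libraries, the replicate number as a block and each library left out. With 2 libraries left in a group, the spread was estimated over both groups.

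Named genes were the 10 largest described and 3 largest undescribed changes in each direction (called, not overlapping, at least 10 FPKM in the higher group), up to 2 called members in each direction and the most abundant member of each list of description words, every member of lists of at most 8, the 5 most abundant genes of each group, and the markers. Members and lists were chosen with earlier results of these data known, and the NACHT and retroelement lists and the words excluded from lists after reading the descriptions. Further hydrophobins, terpene synthases, desaturases, glutamine synthetases, aromatic amino acid lyases, permeases, kinases and the neighbouring runs were named after their values were seen.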

Additional observations from a re-analysis of the deposited data

Results flagged for a closer look

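Only genes called both in pileus against primordia and in pileus minus stipe, by limma with an adjusted p under 0.05, were counted here. In 137 of them all pileus libraries lay on one side of all primordia libraries and all button stipe libraries on the other. The pileus was above in 62 and below in 75. The calls and the pattern come from the same values, so the calls add no support to it. Its share among all genes was not worked out. Of the genes named by rule 21 were among them. The values below are the log2 differences of pileus minus stipe, first from all 18 libraries and then without the libraries labelled button stipe 1 and maturation pileus 3.

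With the pileus above, the undescribed A07611 had 8.62 (8.39 without the 2 libraries). The wall synthesis gene A04463 had 3.64 (4.28), the lectin A07014 3.45 (3.81) and the P450 A00113 3.34 (3.38). The peroxidase A09158 had 3.37 (3.48), the transporter A00527 3.05 (3.84) and the serine carboxypeptidase A00898 3.16 (3.34). The ribosome assembly gene A07299 had 1.44 (1.60), the desaturase A04847 2.92 (3.47) and the GPI-anchored protein A07675 2.85 (3.28).

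With the pileus below, the F-box gene predicted by StringTie had -7.53 (-7.89), the tyrosine kinase-domain gene A07516 -6.20 (-6.60) and the FMN reductase A01071 -6.14 (-6.01). The glutathione S-transferase A05001 had -6.10 (-6.94), the kinase A05084 -4.17 (-4.29) and the pheromone receptor A02085 -3.72 (-4.35). The desaturase model A01674 had -3.54 (-3.87), the glucan hydrolase A03178 -2.85 (-3.23) and the linker histone A04602 -2.57 (-2.91). The homeobox gene A01390 had -2.15 (-2.23). A serine carboxypeptidase predicted by StringTie on contig 1, 770297 to 772912, which overlaps another gene so that reads may be shared, had -1.86 (-1.82).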

How the results depend on the processing

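Button pileus against primordia gave 305 higher and 674 lower genes. Leaving out each library in turn gave 253 to 339 higher and 528 to 770 lower. A filter at a mean of 5 FPKM tested fewer genes (7463) and gave 200 higher and 456 lower. All 33 libraries in one fit gave 102 higher and 295 lower, with the spread taken over every group. Quantile normalization gave 363 and 607, with 37.4% of calls higher against 31.2%, and the remaining alternatives gave 225 to 330 higher and 484 to 714 lower. No called gene was called in the opposite direction in any of them.

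The fit with the replicate number as a block gave 303 and 666 (against button stipe 730 and 911) and changed no call among the 129 called genes named. Libraries with the same number had correlations of deviations of -0.0653, 0.0633 and 0.0423, so the numbers were not taken to pair samples. Of the 129 genes, 107 kept their call in every fit that left out a library and 68 in the fit of all 33. The 61 without a call in that fit were A00066, A00421, A00527, A00777, A00797, A00898, A00941, A00991, A01044, A01364, A01423, A01507, A01874, A01884, A02085, A02263, A02277, A02878, A03060, A03178, A03944, A04098, A04463, A04602, A04847, A04976, A05002, A05003, A05193, A05314, A05482, A06149, A06159, A06794, A06990, A06991, A07014, A07137, A07299, A07388, A07435, A07611, A07644, A07659, A07660, A07675, A08292, A08515, A08561, A08582, A08699, A09042, A09158, A09162, A09428, A09824, A10019, and the genes predicted by StringTie on contigs 2, 6, 14 and 23 (A08515 was not tested there). A pseudocount of 1 lost the calls of A02390, A02085, A07299, A07137, A05003 and A05464, voom those of A02878, A09042, A01597 and A07137, and median-ratio scaling those of A07435, A07299 and A07137. Quantile normalization lost those of A02085 and A05003, the fit without a trend those of A08561 and A02277, library totals that of A07137, and the fit without a filter that of the predicted gene on contig 14. The log2 fold change of the tyrosinase A02061 was -0.663 to 0.172 and that of A05194 -0.0127 to 0.226 when libraries were left out, and neither was called. The cause was not tested.

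Button pileus against button stipe, with 739 higher and 930 lower genes, depended most on its libraries, at 447 to 1104 higher and 546 to 1323 lower when 1 was left out. Without the libraries labelled button stipe 1 and maturation pileus 3, a choice made after seeing the data, it gave 1283 and 1468. Library totals gave 975 and 742. With 3 libraries a group, a change may go uncalled, and genes near 0.5 FPKM rest on few reads.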
